A study of Mus musculus with 36 samples.

Results

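The genes described here are the cytosolic ribosomal protein genes of the mouse, followed across 3 brain tissues and 4 genotypes in poly(A) RNA sequencing libraries. Members were the protein-coding genes whose GENCODE M21 symbol is Rpl or Rps followed by a number and at most 1 letter, or is Rplp0, Rplp1, Rplp2 or Rpsa. The rule used symbols alone and no measured value, and it found 80 genes of the 38924 in each table, 49 of the large and 31 of the small ribosomal subunit. They lie on 19 chromosomes, with 7 on chromosome 11 and 4 on the X. Of the 80, 77 passed the filter on low counts in each of the 3 tissues. Rpl24 passed it in cortex alone and in the fit over all libraries. Rpl10l and Rpl39l passed nowhere.

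There were 36 libraries of mouse hypothalamus, brainstem and cortex on the C57BL/6 strain, 3 in each of 12 groups of tissue and genotype. The tested genotypes were Hcrt/Orexin-ataxin-3 transgenic mice and Hcrt/Orexin knockout mice. In the former, ataxin-3 expressed in hypocretin (orexin) neurons removes those cells, and in the latter the peptide's gene is knocked out. Each was set against wild-type mice of its own line, here called the wild type of the ataxin-3 line and the wild type of the knockout line. The labels name no age, and do not say whether the 3 libraries of a group came from separate mice, so p-values measure the spread between libraries, which may be technical. Gene counts per library ran from 21915540 to 47057537. Hcrt itself, the check of the labels, had 2.07, 2.28 and 2.46 CPM (counts scaled to library size) in transgenic hypothalamus, against 180, 101 and 196 CPM in its wild type, and 1.14, 1.03 and 0.996 CPM in knockout hypothalamus, against 81.2, 51.4 and 56.1 CPM in its wild type. Sums of 8 marker genes for each tissue set the hypothalamus, brainstem and cortex libraries apart without overlap. Among the cortex markers, Lamp5 had a higher median in brainstem (274 CPM) than in cortex (237 CPM). Rasgrf2 had a higher median in hypothalamus (312 CPM) than in cortex (299 CPM). The other markers had their highest median in their own tissue. Pituitary hormone genes summed to 27100 and 14400 CPM in libraries 1 and 3 of wild-type hypothalamus of the ataxin-3 line and to 20200 CPM in library 3 of that of the knockout line, and to at most 206 CPM in the others. Nasal epithelium genes reached 2160 CPM in library 1 of transgenic hypothalamus.

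Ribosomal proteins and ribosomal RNAs form the large subunit, which joins amino acids, and the small subunit, which reads the messenger RNA. Their mRNAs are among the most abundant of a cell, and many begin with a terminal oligopyrimidine (TOP) tract, a cytosine followed by an unbroken run of pyrimidines, through which the kinase complex mTORC1 and the protein Larp1 control their translation. Mammalian genomes also hold many processed copies of these genes, which makes reads hard to place, and a few later copies with restricted expression, such as Rpl3l in striated muscle and Rpl10l in testis.

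RefSeq transcription starts (GRCm38.p6) were at hand for 60 of the 80 genes. A C followed by at least 4 more C or T, read on the transcribed strand from the annotated start, was found in 13 of 60 genes (21.7%), against 813 of the 27025 genes in the same table (3.01%). The 6 letters CGGAAG, searched on both strands in the 300 bases from 250 before to 50 after the start, occurred at 41 of 60 genes (68.3%), against 5075 of all genes (18.8%). These letters are a description of the annotated starts, which may lie some bases from the ones used in these tissues. The 9 starts printed here are a selection from the 60 genes. Rps6, Rps27, Rps15a, Rpl15, Rpl10 and Rpsa were higher in hypothalamus than in cortex. Rpl15, at a log2 fold change of 0.53 there, lay below the members' median of 0.60. Rpl28 was highest in brainstem, Rpl12 was lowest in brainstem, and Rps27l is the second copy of Rps27. Each shows 15 bases before the start and the first 15 bases from it, with the pyrimidine run from the start in capitals where it opens with C:
Rps6: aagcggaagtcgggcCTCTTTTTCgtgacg
Rps27: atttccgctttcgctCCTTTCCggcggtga
Rps15a: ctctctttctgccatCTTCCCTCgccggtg
Rpl15: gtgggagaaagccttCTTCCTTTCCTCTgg
Rpl10: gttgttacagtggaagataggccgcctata
Rpsa: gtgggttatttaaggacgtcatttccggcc
Rpl28: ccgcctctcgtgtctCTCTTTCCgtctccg
Rpl12: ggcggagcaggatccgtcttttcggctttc
Rps27l: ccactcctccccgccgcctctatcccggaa
They lie at chr4:86857353-86857382 on the minus strand (Rps6), chr3:90213634-90213663 on the minus strand (Rps27), chr7:118116133-118116162 on the minus strand (Rps15a) and chr14:18270972-18271001 on the minus strand (Rpl15). Those on the plus strand are chrX:74270801-74270830 (Rpl10), chr9:120127751-120127780 (Rpsa), chr7:4792950-4792979 (Rpl28), chr2:32961697-32961726 (Rpl12) and chr9:66946071-66946100 (Rps27l). Rps6, Rps27, Rps15a, Rpl15 and Rpl28 open with C and a pyrimidine run. Because the 9 were picked, their share cannot be set against that of the 60 genes. Of other genes named below, Rps9, Rps2, Rpl22, Rps19 and Rpl37 are among those without such a start. Rps18 and Rplp2 are among those with it. Rpl10, Rpl12 and Rps27l open with G and Rpsa with A at the RefSeq start, and no relation of these starts to the tissue levels was tested.

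Levels per length, given as TPM (counts scaled to library size and to the union of a gene's exons), spanned a wide range among the members. Averaged over the 36 libraries, the highest was Rplp1, an acidic protein of the stalk that recruits elongation factors, at 1930 TPM. It was followed by Rps15 at 1170, Rpl4 at 885, Rps29 at 812, Rpl8 at 606 and Rpl17 at 589 TPM. With the longest transcript as the length, Rplp1 and Rps15 remained in first and second place and Rpl17 took place 17 in place of 6. The other stalk genes were lower, at 302 TPM for Rplp0, the base of the stalk, and 155 TPM for Rplp2, the partner of Rplp1. Rpsa, the small subunit protein also known as the laminin receptor precursor, averaged 309 TPM.

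At the low end stood Rpl18 at 61.4 TPM and Rps27l at 41.8 TPM, and then 4 genes near the floor of detection. Rpl3l, the muscle copy of Rpl3, averaged 0.866 TPM from 3 to 25 counts per library, while Rpl3 averaged 448 TPM. Rpl39l, a copy of Rpl39 known from testis, had 0 to 6 counts per library, and Rpl39 averaged 87.4 TPM. Rpl10l had 0 counts in all 36 libraries, and its parent Rpl10 on the X averaged 219 TPM. Rpl24, a large subunit gene with no known tissue restriction, had only 1 to 19 counts per library. In the annotation another gene, Gm28037, lies over Rpl24 on the same strand, and it had 0 counts in every library. A read that falls in both of 2 genes is not counted for either in most counting modes, so the values of Rpl24 cannot be read as its expression.

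The levels of other members carry a similar, smaller uncertainty. The annotation names 287 pseudogenes after 55 of the 80 members, among them 24 for Rpl31, 23 for Rps12, 15 for Rpl21 and 14 each for Rps19 and Rpl23a. Reads placed at more than 1 site made up 16% to 26.4% of a library and were not assigned to genes. Further, 15 members overlap a protein-coding gene on the other strand, among them Rpl3 (Syngr1), Rpl12 (Lrsam1), Rpl28 (Ube2s), Rpl15 (Nkiras1) and Rps18 (Vps52), and 31 hold small RNA genes within them. Whether strand was used in the counting is not given in the sources used here, so reads of the 2 strands may have been joined at these genes.

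Together the 80 genes took up more of the hypothalamus libraries than of the others. Their summed share of gene counts was 1.23% ± 0.164 in hypothalamus, 0.953% ± 0.112 in brainstem and 0.721% ± 0.0964 in cortex (SD, n = 12 each). The lowest, median and highest libraries were at 1.14%, 1.17% and 1.72% in hypothalamus, at 0.672%, 0.996% and 1.1% in brainstem, and at 0.665%, 0.698% and 1.02% in cortex. All 12 hypothalamus libraries lay above all brainstem and cortex libraries, whereas the brainstem and cortex ranges overlapped. Without mitochondrial genes in the total the mean shares were 1.29%, 1.02% and 0.764% in the same order. The large subunit genes held 0.685% to 1.02% and the small subunit genes 0.456% to 0.701% of hypothalamus counts, against 0.407% to 0.619% and 0.258% to 0.404% of cortex counts. The libraries are bulk tissue, so a different mix of cells and a different amount of mRNA per cell cannot be told apart in any of these values.

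**Figure D1:**
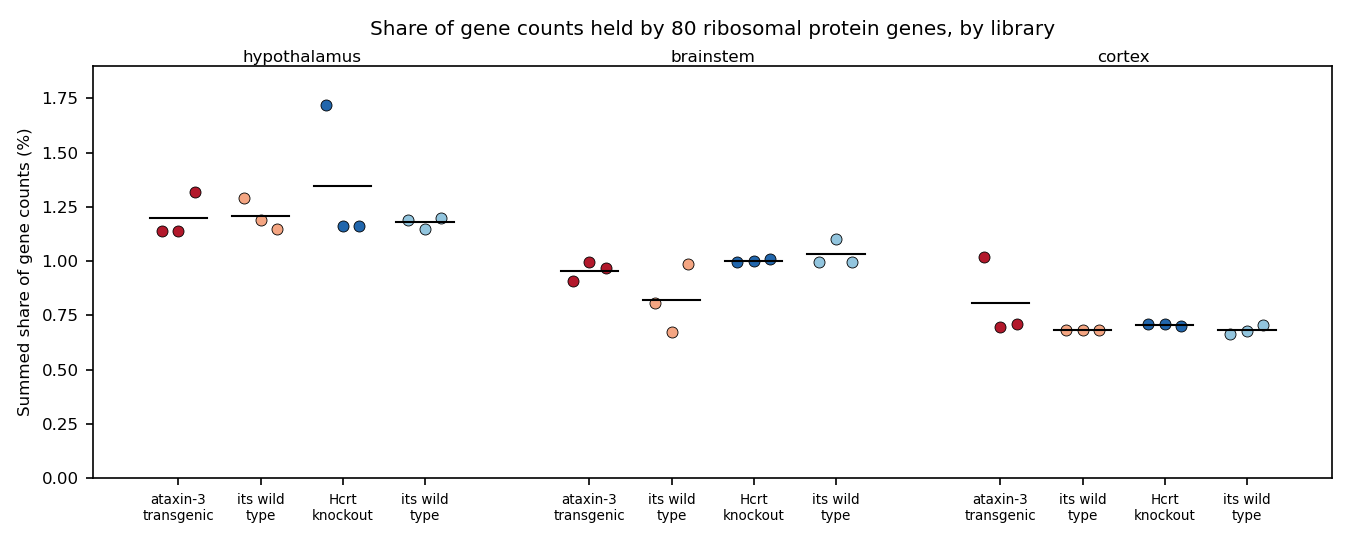
Summed share of gene counts (%, from 0) held by the 80 ribosomal protein genes in each library, by tissue and genotype. Each point is 1 library and each line a group mean of 3; the knockout hypothalamus library at 1.72% and the transgenic cortex library at 1.02% stand above their tissues, and wild-type brainstem libraries of the ataxin-3 line at 0.807% and 0.672% below theirs.

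In these genes 4 libraries stood apart from their tissue. They were picked by the members' own share after the data were seen, not by a check set beforehand. Each gene's deviation was taken as its log2(CPM + 0.5) minus the median over the 12 libraries of the tissue, for the 76 members with a mean above 2 CPM. Library 1 of knockout hypothalamus had all 76 members above the tissue median, by 0.25 to 0.88 with a median of 0.58, and a share 1.47 times the tissue median. Library 1 of transgenic cortex also had all 76 above, by 0.19 to 0.77 with a median of 0.53, and again 1.47 times the median share. In wild-type brainstem of the ataxin-3 line, libraries 1 and 2 lay below, with medians of -0.21 and -0.33 and only 6 and 1 of 76 members above the tissue median. Their shares were 0.81 and 0.675 times the median of brainstem. Among the other 32 libraries the median deviation of the members stayed between -0.11 and 0.17.

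Other measures moved in these 4 libraries as well. Genes outside the set with a longest transcript of 600 to 1000 bases had a median deviation of 0.42 in both high libraries, and genes over 4000 bases had -0.19 in the knockout hypothalamus library and -0.17 in the transgenic cortex library. In the low brainstem libraries the 600 to 1000 base genes were at -0.18 and -0.17 and the longest genes at 0.06 and 0.02. Library 2 of that group also had the highest mitochondrial share, 10.7% of gene counts, and the highest share of reads outside features, 15.2%. The part of transcript length or read quality in the members' deviations was not tested. Library 1 of wild-type hypothalamus of the ataxin-3 line, rich in pituitary Gh, and library 3 of transgenic hypothalamus, had smaller shifts of 0.17 each, with 75 and 73 of 76 members above the median. In brainstem, library 2 of the wild type of the knockout line had all 76 above, with a median of 0.14, and library 1 of the transgenic group had 0 of 76 above, with a median of -0.11.

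**Figure D2:**
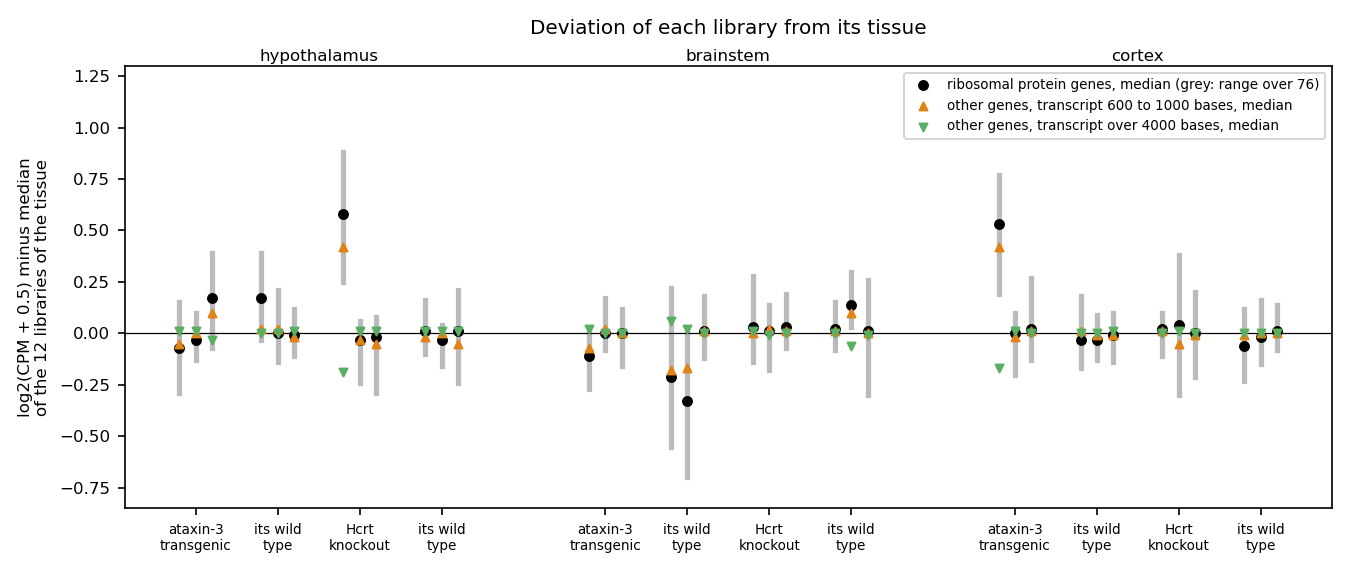
Deviation of each library from the median of its tissue, in log2(CPM + 0.5), for the ribosomal protein genes (black, median; grey, range over 76 genes) and for other genes with transcripts of 600 to 1000 bases (orange) or over 4000 bases (green). In the library at 0.58 in knockout hypothalamus and the one at 0.53 in transgenic cortex, the whole grey range lies above 0, and the orange and green points part in opposite directions.

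The first comparison asks how these genes differ between the tissues, as a mean over the 4 genotypes in a single fit to all 36 libraries, with edgeR's quasi-likelihood test and Benjamini-Hochberg adjustment over 17744 genes. Nearly all ribosomal protein genes were higher in hypothalamus than in cortex: of 78 tested, 74 were higher and 4 lower at an adjusted p under 0.05. Their median log2 fold change was 0.60, against 0.029 for all genes tested. In that comparison 42.7% of all genes passed as higher and 83.0% in either direction, so passing alone was common. The medians of the subunits were 0.55 for the large and 0.63 for the small. The same 74 and 4 counts were obtained without the 4 libraries that stand apart, among 15178 genes called.

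Among small subunit genes the largest rise was in Rps6, the protein that S6 kinases phosphorylate. Rps6 ranged from 131 to 191 CPM with a median of 141 in hypothalamus, against 69.1 to 103 CPM with a median of 74.8 in cortex, and no hypothalamus library overlapped with cortex. Its log2 fold change was 0.93 ± 0.05 (SE; edgeR adjusted p = 5.9e-17). Rps27, a zinc-finger protein of the small subunit, had 124 to 222 CPM in hypothalamus and 68.7 to 122 CPM in cortex, a log2 change of 0.89 ± 0.08. Rps27a, which is made as a fusion with ubiquitin, rose by 0.86 and Rps9 by 0.83. Rpsa rose by 0.80 ± 0.05. In all of these the lowest hypothalamus library was above the highest cortex library. Apart from Rpsa, the rule for naming them required this, and the share of all genes without overlap was not counted.

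In the large subunit the leading gene was Rpl3, a protein close to the peptidyl transferase centre. Rpl3 had 447 to 675 CPM in hypothalamus with a median of 495, against 246 to 337 CPM in cortex with a median of 253, and the ranges did not meet. The log2 fold change was 0.97 ± 0.05 (SE; edgeR adjusted p = 1.5e-18). Rpl10, the X-linked protein that joins the subunit late in its assembly, had 139 to 227 CPM in hypothalamus and 79.0 to 112 CPM in cortex, a log2 change of 0.89 ± 0.06. The stalk genes changed less than most: Rplp0 by 0.53 ± 0.05, Rplp2 by 0.51 ± 0.08 and Rplp1 by 0.35 ± 0.06. Rpl36a and Rps4x, both X-linked, rose by 0.62 and 0.67, and the X-linked Rpl39 by 0.52. None of the 78 genes reached a 2-fold difference in the upward direction, a size that 12.5% of all genes passed as higher.

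The 4 members that were lower in hypothalamus than in cortex were Rpl22, Rpl29, Rpl3l and Rpl24, named after their values were seen. Rpl22, an RNA-binding protein of the large subunit, had 59.5 to 86.4 CPM in hypothalamus with a median of 67.5, against 71.3 to 88.9 CPM in cortex with a median of 75.1. Its log2 fold change was -0.14 ± 0.05 (edgeR adjusted p = 0.0074). Rpl29, a heparin-binding protein at the surface of the subunit, had medians of 31.9 CPM in hypothalamus and 35.8 CPM in cortex and a log2 change of -0.19 ± 0.06 (edgeR adjusted p = 0.0075). Both sets of ranges overlapped, and both calls ended with upper quartile factors, at -0.07 for Rpl22 and -0.13 for Rpl29. The call of Rpl29 also ended without the hypothalamus libraries rich in pituitary or nasal genes, at -0.16. Rpl3l and Rpl24 had log2 values of -0.87 and -1.01, at under 1 CPM.

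**Figure D3:**
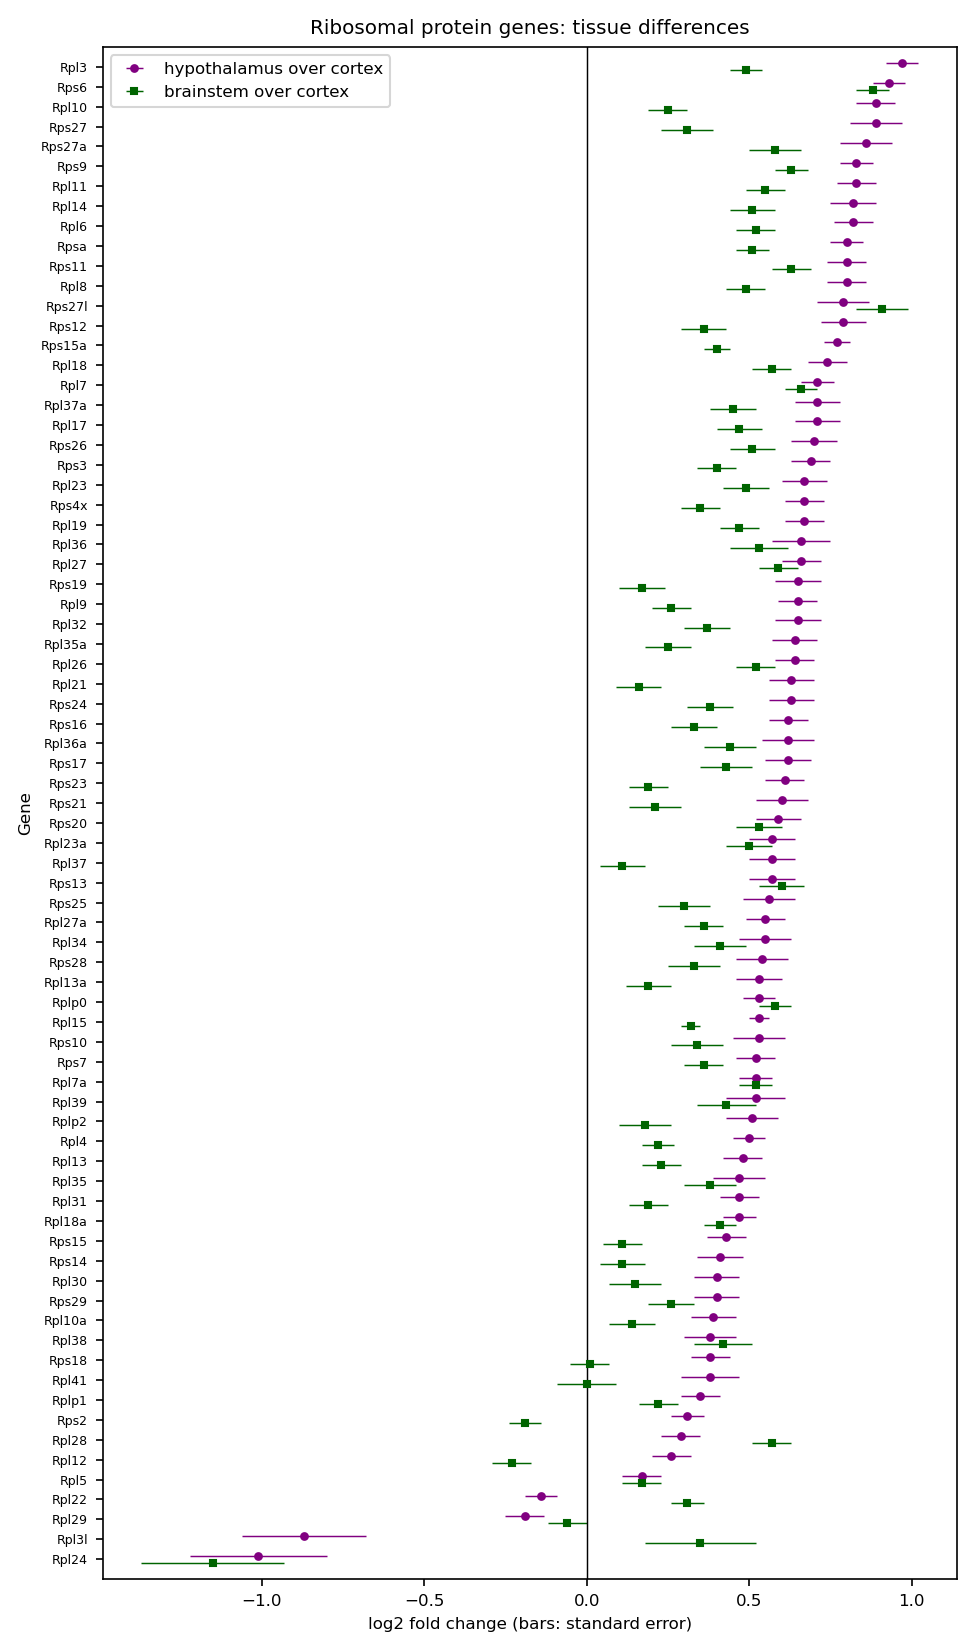
Log2 fold change with its standard error for 76 of the tested ribosomal protein genes, hypothalamus over cortex (purple circles) and brainstem over cortex (green squares), ordered by the hypothalamus value. All but 4 genes lie right of 0 in the first comparison, from Rpl3 at 0.97 to Rpl24 at -1.01, and the second comparison follows a different order, with Rps27l and Rps6 in front and Rpl12 and Rps2 left of 0.

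In brainstem against cortex, 66 of 78 members were higher and 3 lower, with a median log2 fold change of 0.37, against 0.020 for all genes. Of all genes 43.1% passed as higher and 84.7% in either direction. Leaving out the 4 libraries that stand apart gave a median of 0.47. They were chosen by the members' own share, and leaving them out in itself raises brainstem over cortex in these genes. Leaving out single libraries gave 62 to 71 members higher, with 14984 to 15279 of all genes called in either direction. With upper quartile factors the median of all genes was 0.116 and that of the members 0.47. There 72 members were higher and 1 lower, among 15091 genes called.

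The order of the genes differed from that of hypothalamus. Rps27l, a homolog of Rps27 that responds to p53, led with 9.33 to 13.5 CPM in brainstem against 5.21 to 7.63 CPM in cortex, a log2 change of 0.91 ± 0.08 (edgeR adjusted p = 3.1e-12). Rps6 followed at 0.88 ± 0.05, with 121 to 150 CPM in brainstem against 69.1 to 103 CPM in cortex. Rpl7, a large subunit protein, rose by 0.66 ± 0.05 and Rps15a by 0.40 ± 0.04. For these 4 genes no brainstem library overlapped with cortex, which the rule for naming them required. The share of all genes without overlap was not counted.

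The 3 members that were lower in brainstem than in cortex were Rpl12, Rps2 and the barely counted Rpl24. Rpl12, at the base of the stalk, had 91.1 to 126 CPM in brainstem with a median of 113, against 120 to 179 CPM in cortex with a median of 127, a log2 change of -0.23 ± 0.06 (edgeR adjusted p = 0.0014). Rps2, which lines the mRNA entry side of the small subunit, had medians of 104 CPM in brainstem and 117 CPM in cortex, a log2 change of -0.19 ± 0.05 (edgeR adjusted p = 0.00064). With upper quartile factors these became -0.13 and -0.10 and no longer passed. Rps18 and Rpl41, the smallest ribosomal protein, had log2 values of 0.01 ± 0.06 and 0.00 ± 0.09. Without the 4 libraries that stand apart, Rps18 was at 0.12 and Rpl41 at 0.17. Those libraries were chosen by the members' own share, so these higher values follow in part from the choice.

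Hypothalamus against brainstem showed a smaller difference, with 54 of 78 members higher and 3 lower, a median of 0.25 and 0.035 for all genes. Of all genes 40.8% passed as higher and 76.8% in either direction. Without the 4 libraries that stand apart the median was 0.15, with 0.054 for all genes. Leaving them out in itself lowers hypothalamus over brainstem in these genes, as they were chosen by the members' own share. Without library 1 of knockout hypothalamus alone the members' median was 0.18. Rpl10 was in front, with 139 to 227 CPM in hypothalamus against 95.8 to 118 CPM in brainstem, a log2 change of 0.64 ± 0.06 (edgeR adjusted p = 2.8e-10). Rps27 rose by 0.58 ± 0.08, Rps2 by 0.51 ± 0.05, and Rpl12 and Rps19 by 0.49 each. Rps19, a small subunit protein mutated in Diamond-Blackfan anaemia, had 86.3 to 145 CPM in hypothalamus and 51.4 to 82.2 CPM in brainstem. Rpl3 rose by 0.48 ± 0.05, Rpl21 by 0.48 ± 0.07 and Rpl37 by 0.46 ± 0.07. In these 8 genes the lowest hypothalamus library exceeded the highest brainstem library, which the rule for naming them required. Other members were also without overlap, and the share of all genes without overlap was not counted.

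Some genes had their highest level in brainstem. Rpl22 had 77.4 to 101 CPM there, and the log2 value of hypothalamus against brainstem was -0.45 ± 0.05 (edgeR adjusted p = 4.1e-10). Rpl28 had a median of 98.2 CPM in hypothalamus, 126 CPM in brainstem and 79.9 CPM in cortex, and hypothalamus differed from brainstem by -0.28 ± 0.06 (edgeR adjusted p = 0.0002). Rpl3l, from 3 to 25 counts, was lower in hypothalamus than in brainstem, at -1.22 ± 0.19. Rps6, Rpl7, Rpl7a and Rps27l did not pass between hypothalamus and brainstem, with log2 values of 0.05, 0.05, 0.00 and -0.12. Rps27l was at -0.20 without the 4 libraries that stand apart, which were chosen by the members' own share.

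**Figure D4:**
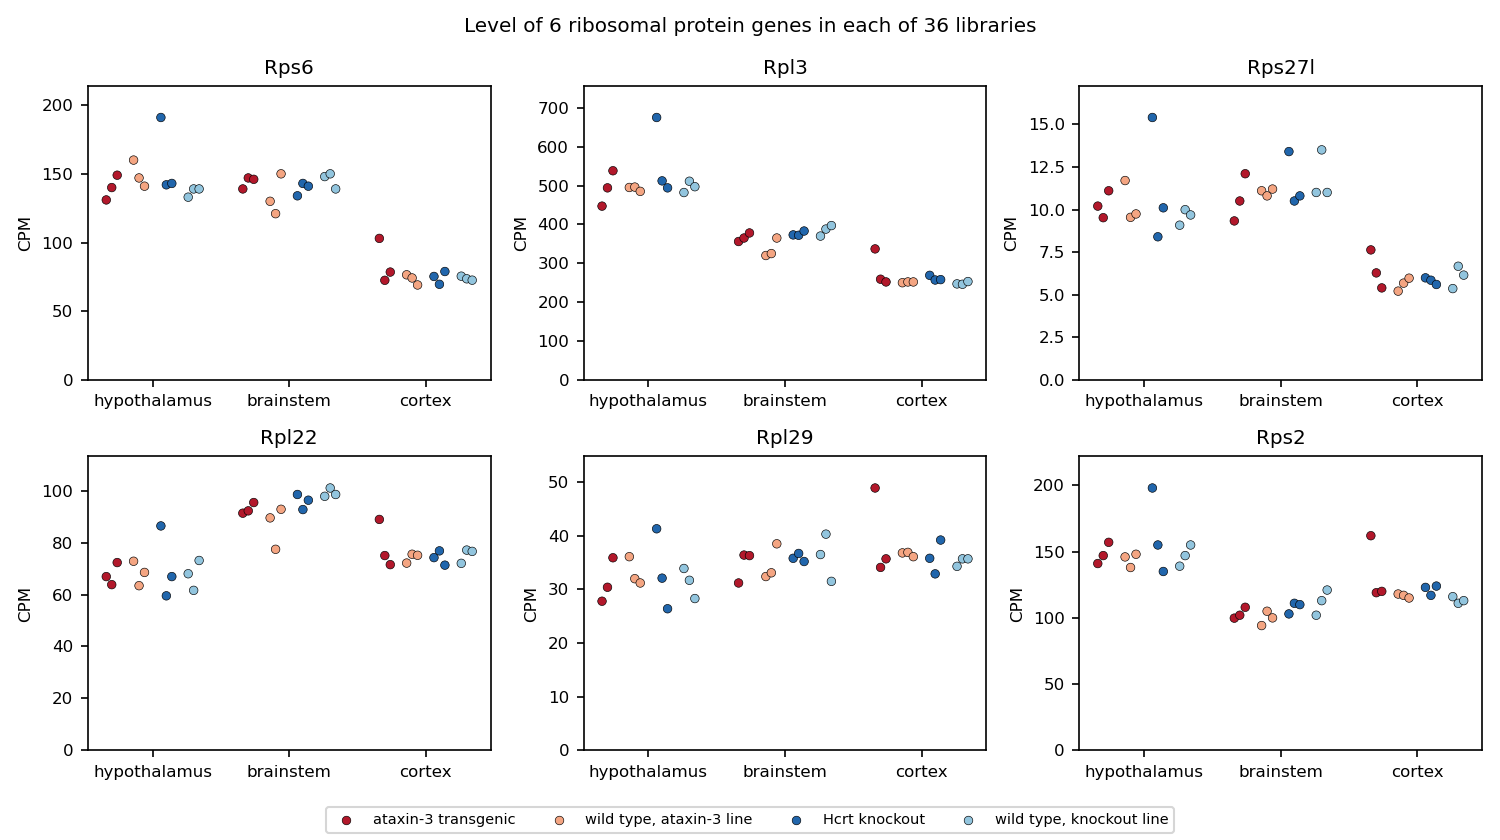
CPM (from 0) of 6 ribosomal protein genes in each of the 36 libraries, by tissue, with colours for the genotypes. Rps6 and Rps27l stand high in hypothalamus and brainstem, Rpl3 in hypothalamus, Rpl22 in brainstem, the ranges of Rpl29 overlap in all 3 tissues and Rps2 has its lowest median in brainstem; the high point in hypothalamus for each gene is library 1 of the knockout group.

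Paralogs differed in their order across the tissues. Rps27 had medians of 136 CPM in hypothalamus, 96.1 CPM in brainstem and 74.2 CPM in cortex, whereas Rps27l had 9.86, 11 and 5.91 CPM in the same order. Both were higher in hypothalamus than in cortex, Rps27 by 0.89 and Rps27l by 0.79, and in brainstem than in cortex, by 0.31 and 0.91. The differences between paralogs were not tested. Rpl22l1, a paralog of Rpl22 outside the symbol rule whose mRNA Rpl22 is known to repress, was higher in hypothalamus than in cortex by 1.22 ± 0.09 and than in brainstem by 0.41 ± 0.09, whereas Rpl22 was lower in hypothalamus in both comparisons. In brainstem against cortex both were higher, Rpl22l1 by 0.82 ± 0.09 and Rpl22 by 0.31 ± 0.05. The call of Rpl22 in hypothalamus against cortex ended with upper quartile factors, at -0.07, and no relation between Rpl22 and Rpl22l1 was tested. Of the 7 ribosomal proteins outside the rule, 6 passed as higher and 1 as lower in hypothalamus against cortex, with Rps3a1 at 0.67, Rack1 at 0.47 and Rpl7l1 at 0.49.

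Within each genotype the members' median difference was positive in all 3 tissue comparisons, at differing size. The median difference between hypothalamus and cortex was 0.40 in transgenic mice, 0.65 in the wild type of the ataxin-3 line, 0.71 in knockout mice and 0.60 in the wild type of the knockout line. Between brainstem and cortex it was 0.23 in transgenic mice, 0.30 in their wild type, 0.46 in knockout mice and 0.51 in their wild type. Between hypothalamus and brainstem it was 0.19, 0.37, 0.27 and 0.09 in the same order. The transgenic value for cortex and the knockout value for hypothalamus include the 2 high libraries, and the brainstem value for the wild type of the ataxin-3 line the 2 low ones.

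Other measures differed between the tissues too. Genes outside the set with transcripts of 600 to 1000 bases had a median log2 fold change of 0.22 in hypothalamus against cortex, 0.34 in brainstem against cortex and -0.07 in hypothalamus against brainstem. Those of up to 600 bases, a class that also holds members such as Rplp1 and Rps29, had -0.31, -0.17 and -0.05 in the same order. That class held 512 tested genes outside the set, and only 64 to 68 of this length had a mean above 2 CPM in a tissue. Its medians therefore rest mostly on genes with low counts, unlike most members. The summed CPM of 6 neuronal markers was 3150 to 4050 in hypothalamus, 7310 to 7940 in brainstem and 6950 to 7440 in cortex. That of 6 oligodendrocyte markers was 4200 to 5740 in hypothalamus, 16800 to 20800 in brainstem and 3510 to 4670 in cortex, and that of 6 astrocyte markers 2610 to 3410, 3610 to 4310 and 4320 to 6000 in the same order. Single markers did not all follow their sums. Among astrocyte markers, Slc1a2 had medians of 1570, 2240 and 4210 CPM in the same order. Aqp4 (196, 505 and 137 CPM), Gfap and Gja1 were lowest in cortex, Slc1a3 in brainstem and Aldh1l1 in hypothalamus. Among neuronal markers, Syt1 was lowest in brainstem (821, 380 and 2210 CPM) and Stmn2 in cortex. Snap25, Rbfox3, Nefl and Eno2 were lowest in hypothalamus. None of these markers was at 0 in every library. Their part in the ribosomal protein differences was not tested.

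Counts in gene lists around the ribosome stand against 42.7% of all genes higher and 40.3% lower in hypothalamus against cortex, 43.1% and 41.6% in brainstem against cortex, and 40.8% higher with 76.8% in either direction in hypothalamus against brainstem. Of 20 other translation genes known for TOP mRNAs, 16 passed as higher and 3 as lower in hypothalamus against cortex, with a median of 0.39. Eef1a1, the elongation factor that brings aminoacyl-tRNA, was higher by 0.97 ± 0.03 and Npm1, a nucleolar chaperone, by 1.05 ± 0.05. Of 76 mitochondrial ribosomal protein genes tested, 56 passed as higher and 9 as lower with a median of 0.23, and in brainstem against cortex 68 passed as higher and 3 as lower with a median of 0.38. In hypothalamus against brainstem these genes had 7 higher and 45 lower and a median of -0.13, against 54 higher and 3 lower of the cytosolic genes. The 29 genes of ribosome assembly and rRNA synthesis had 13 higher and 10 lower in hypothalamus against cortex with a median of 0.06, shares near those of all genes. Nop58, of the box C/D particles, was higher by 0.52 ± 0.04, and Ubtf, the upstream binding factor of rRNA transcription, was lower, at -0.54 ± 0.04. Of 15 genes of mTORC1 and TOP control, 2 passed as higher and 8 as lower, with Rps6kb2 and Rps6kb1, the S6 kinases, at -1.50 and -0.92.

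The second set of comparisons asks whether loss of hypocretin neurons or knockout of the Hcrt gene goes with a change in these genes. No ribosomal protein gene passed in any of the 6 comparisons of a mutant with its own wild type, by edgeR's quasi-likelihood test within a tissue. Few genes passed at all: 0.00597% and 0.0119% of the genes tested in transgenic and knockout hypothalamus, 0% and 0.0789% in transgenic and knockout cortex, and 0.00606% and 0.0728% in transgenic and knockout brainstem. DESeq2 called no member in these 6 either.

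In transgenic hypothalamus the median log2 fold change of 77 members was -0.03, against 0.007 for all genes, with 21 positive and 0 at an unadjusted p under 0.05, where 697 of all 16738 genes were. The 4 members with the smallest p among negative values included Rpl41, at 133, 141 and 135 CPM in transgenic hypothalamus against 185, 161 and 133 CPM in its wild type, a log2 value of -0.21 ± 0.14 (edgeR adjusted p = 1). The groups overlapped, and the wild-type libraries rich in Gh, 1 and 3, held the highest and the lowest wild-type value. Without those libraries and the transgenic library rich in nasal genes, the direction of the members turned, to a median of 0.07 with 56 of 77 positive. Library 3 of the wild type of the knockout line, also rich in Gh, was left out of that fit too. Only library 2 of the wild type of the ataxin-3 line remained, so the turn rests on that lone wild-type library. With single libraries left out the median ran from -0.11, without library 3 of transgenic hypothalamus, to 0.03, without library 1 of its wild type.

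In knockout hypothalamus the median was 0.20, against 0.012 for all genes, and 75 of 77 members had positive values, 0 of them at an unadjusted p under 0.05. Rps6 had 191, 142 and 143 CPM in knockout hypothalamus, against 133, 139 and 139 CPM in its wild type, a log2 value of 0.22 ± 0.11 (edgeR adjusted p = 0.81). The groups of Rps6 did not overlap, although 2 of the knockout libraries exceeded the highest wild-type one by only a few CPM. Rpl3 had 675, 512 and 494 CPM in knockout hypothalamus, against 482, 511 and 497 CPM in its wild type, and these overlapped. Without library 1 of the knockout group the median was -0.05 and 9 of 77 members were positive. That library stands apart by the members' own share, so leaving it out in itself lowers this median.

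Transgenic cortex had a median of 0.24, against 0.004 for all genes, with 77 of 78 members positive, where 51.4% of all genes were. At an unadjusted p under 0.05 were 28 members and 839 of all 16479 genes. Rps23, a small subunit protein at the decoding centre, had 121, 87.4 and 86.8 CPM in transgenic cortex, against 80.3, 84.2 and 80.8 CPM in its wild type. Rpl7 had 171, 140 and 137 CPM in transgenic cortex, against 128, 129 and 128 CPM. Both sets of groups were apart, and the log2 values were 0.27 ± 0.10 for Rps23 and 0.22 ± 0.07 for Rpl7 (edgeR adjusted p = 0.75 for both). Without library 1 of transgenic cortex the median was 0.04 with 60 of 78 positive and 4 at an unadjusted p under 0.05. The choice of that library by the members' own share in itself lowers this median.

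Knockout cortex had a median of 0.05, with 64 of 78 members positive and 1 at an unadjusted p under 0.05. The median was 0.02 without library 1 of its wild type, and with library 1 of transgenic cortex out of the shared fit 9 members were at an unadjusted p under 0.05. Rps23 had 86.7, 90.1 and 86.2 CPM in knockout cortex, against 76.1, 83.5 and 83.2 CPM in its wild type, a log2 value of 0.12 ± 0.10 (edgeR adjusted p = 1). The groups did not overlap. The summed share of the 80 genes was 0.707% ± 0.00606 in knockout cortex and 0.683% ± 0.0217 in its wild type (SD, n = 3 each), with 0.700% to 0.711% against 0.665% to 0.707%.

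In brainstem the transgenic group had a median of 0.14, against 0.000 for all genes, with 69 of 77 members and 50.1% of all genes positive. At an unadjusted p under 0.05 were 18 members and 1377 of all 16493 genes. Rps9 had 149, 157 and 152 CPM in transgenic brainstem, against 120, 120 and 145 CPM in its wild type, a log2 value of 0.25 ± 0.07 (edgeR adjusted p = 0.54). Rps23 had 99.1, 104 and 107 CPM in transgenic brainstem, against 80.5, 69.5 and 97.5 CPM. The groups were apart for both genes, and the third wild-type library lay near the transgenic ones. Without the low libraries 1 and 2 of that wild type the median was -0.04 and 14 of 77 members were positive. In that fit the lone remaining wild-type library was assumed to vary like the other groups. The low libraries were chosen by the members' own share, so leaving them out in itself lowers this median. Without library 3 of that wild type, in turn, 25 members passed as higher, among 457 genes called. In knockout brainstem the median was -0.04, with 15 of 77 positive and 0 at an unadjusted p under 0.05. Without library 2 of its wild type the median was 0.00.

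**Figure D5:**
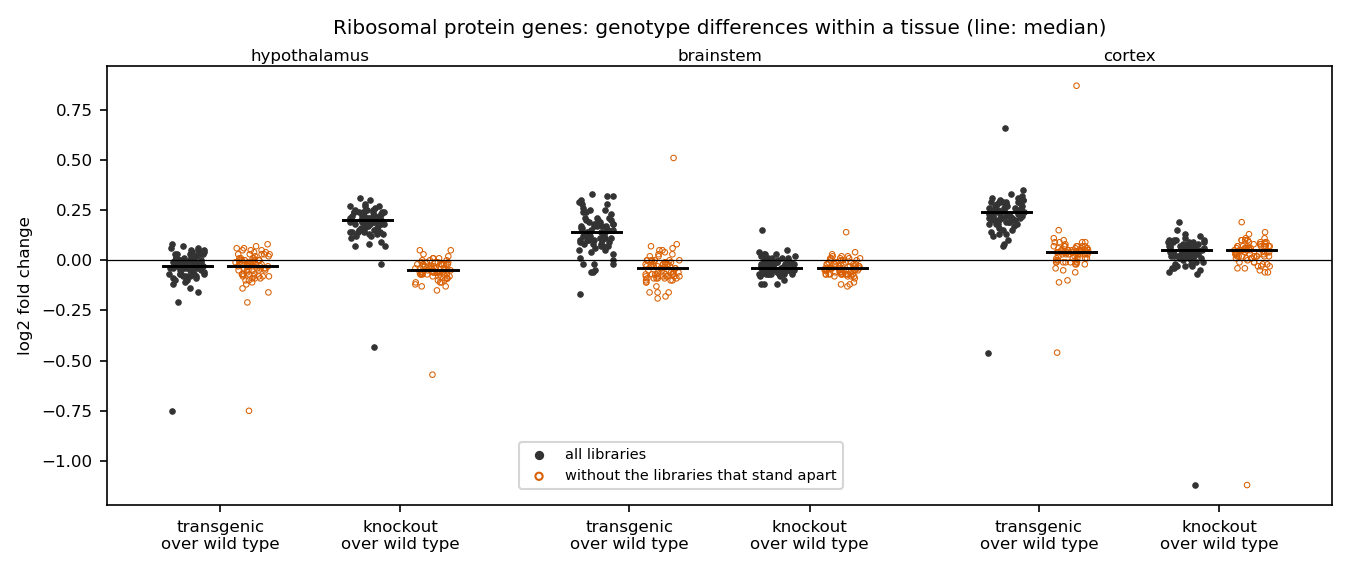
Log2 fold change of the tested ribosomal protein genes in the 6 comparisons of a mutant with its wild type, with all libraries (dark points) and without the 4 libraries that stand apart (open orange points); lines are medians. The medians of 0.20 in knockout hypothalamus, 0.14 in transgenic brainstem and 0.24 in transgenic cortex become -0.05, -0.04 and 0.04 without those libraries. Those libraries were chosen by the members' own share, so leaving them out in itself lowers these medians.

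The same libraries entered the comparisons between lines. The wild type of the ataxin-3 line against that of the knockout line in brainstem had 75 of 77 members negative and a median of -0.22. There 50 members were at an unadjusted p under 0.05, as were 2451 of all 16493 genes, and 0 passed by edgeR, where 0% of all genes passed. Rps18, a protein of the small subunit's head, had the lowest value at -0.46 ± 0.10 (edgeR adjusted p = 0.16). DESeq2 called 20 members lower there, among 290 genes. Without the low libraries 1 and 2 the median was -0.05, and their choice by the members' own share in itself raises this value. The wild types of hypothalamus and of cortex had medians of 0.05 and 0.00 and 0 members called, where 0% of genes passed in each.

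The difference between the transgenic and the knockout effect had a median of -0.23 in hypothalamus, 0.17 in brainstem and 0.18 in cortex. No member passed by edgeR in any tissue, where 0%, 0% and 0.0243% of all genes passed, and 0, 6 and 0 members were at an unadjusted p under 0.05. All 77 values were negative in hypothalamus and all 78 were positive in cortex. Without the hypothalamus libraries rich in pituitary or nasal genes the median there was -0.13. That fit kept a lone library in the wild type of the ataxin-3 line. Without the libraries that stand apart the medians were 0.02 in hypothalamus and -0.01 in both brainstem and cortex. As those libraries were chosen by the members' own share, these smaller values follow in part from the choice.

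Hcrt lies on chromosome 11 with 7 of the members. Rpl27 is 0.68 Mb after it, Rpl19 and Rpl23 lie 2.73 and 2.98 Mb before it, and Rpl38, Rpl23a, Rpl26 and Rps27a lie 13.91 to 71.22 Mb away. None passed in knockout mice in any tissue by edgeR.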

How the data were processed

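The authors deposited 1 table of raw counts per Ensembl gene for each of 36 libraries, not normalized. Per the labels' protocols, total RNA went into stranded poly(A) libraries. Per the submitters' processing notes, the tools were cutadapt 1.2.1, TopHat2 2.0.9 and HTSeq 0.5.4p3 on GRCm38. For the counting, no source used here gives the strand setting, the overlap mode or the release of the annotation. Special lines for unassigned reads held 24.7% to 42% of a library and entered neither library sizes nor tests.

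Symbols, lengths and positions came from GENCODE M21. Counts were fitted with edgeR 4.0.16 in R 4.3.3 (TMM factors, filterByExpr by group, robust quasi-likelihood test, Benjamini-Hochberg over all genes of the fit, threshold 0.05), per tissue with 12 libraries for genotypes, and with all 36 for tissues, averaging genotypes. SE is the log2 fold change divided by the square root of F. Biological coefficients of variation were 18% in hypothalamus, 7.35% in cortex and 9.03% in brainstem. CPM used TMM factors over all libraries. DESeq2 1.42.0 was an alternative. Scripts were tested on simulated data. Every pair of libraries within a group differed beyond sampling noise.

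Named genes were up to 8 per direction past the threshold without overlap of the groups, otherwise the 4 with the smallest p per direction; the 6 highest and lowest per length; stalk genes, Rpsa, paralogs and chromosome 11 members. Single values of 2 genes that the rule selects are not reported here. Members and lists were chosen with earlier results of these data known.

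Deviations of same-numbered libraries correlated above 0.1 in every pair for transgenic and wild-type hypothalamus (0.12 to 0.26). They did so for knockout and wild-type brainstem too (0.15 to 0.57). Other sets ran as low as -0.42, as in transgenic and wild-type brainstem. Libraries of unlike numbers were not compared, so whether the numbers pair libraries is not settled. Across tissues, libraries of the same line and title number correlated at -0.04 to 0.17 for hypothalamus and brainstem. The range was -0.24 to 0.15 for hypothalamus and cortex and -0.29 to 0.12 for brainstem and cortex. The labels do not say whether these came from the same mouse.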

Additional observations from a re-analysis of the deposited data

How the results depend on the processing

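Alternatives were DESeq2, other scaling factors, other filters on low counts, fewer groups in the fit, a replicate block, hypothalamus without libraries rich in Gh or Omp, and each library left out. The set without the 4 libraries whose share stands apart was chosen after seeing the data, by the members' own share.

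With the replicate number as the block, 0 members passed in each genotype comparison. In the fit over all tissues the block was the line together with the title number. There hypothalamus against cortex, brainstem against cortex and hypothalamus against brainstem gave 78, 69 and 57 member calls, as without it. All-gene calls in those fits were 14601, 14936 and 13449. Where every same-numbered pair correlated above 0.1, all-gene calls were 1 in transgenic hypothalamus and 11 in knockout brainstem, against 1 and 12. Whether same-numbered libraries share more than a number is not stated.

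In brainstem, the wild type of the ataxin-3 line against that of the knockout line gave 20 calls with DESeq2 and 2 with no filter on low counts. All-gene calls were 290 and 19 in those settings. Leaving out single libraries gave 0 to 51 member calls there, 0 to 25 in transgenic brainstem and 0 to 5 for the difference of effects. The high value came each time without library 3 of the ataxin-3 line's wild type. All-gene calls rose as well, with ranges of 0 to 1177, 0 to 457 and 0 to 85 in the same order. The cause was not tested. The tissue counts of members ran from 78 to 78, 65 to 74 and 54 to 61. All-gene calls there ran from 14687 to 14895, 14984 to 15279 and 13539 to 13814, so passing was common among all genes.

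Members near 0 changed sign without passing. Rps15a in the brainstem difference of effects was at 0.00 with DESeq2, with relative log expression factors and with the replicate block, and at 0.01 with upper quartile factors and with no filter. Rpl23a between brainstem wild types was at -0.00 with no filter and with the replicate block. Rplp0 in knockout hypothalamus was at 0.05 without libraries rich in Gh or Omp.

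Leaving out single libraries took log2 values across 0 as follows. In transgenic hypothalamus Rpl23a ran from -0.01 to 0.11, Rpl18 from -0.02 to 0.09 and Rpl39 from -0.11 to 0.19, and in knockout hypothalamus Rplp0 from -0.15 to 0.06. In knockout cortex Rps27l ran from -0.14 to 0.01 and Rpl28 from -0.14 to 0.03, and between cortex wild types Rpl3l from -0.43 to 0.01. In transgenic brainstem Rpl23a ran from -0.13 to 0.00 and Rps27l from -0.15 to 0.04, and in knockout brainstem Rpl27a from -0.05 to 0.14, Rpl3l from -0.13 to 0.32 and Rps9 from -0.03 to 0.06. In the brainstem difference of effects Rpl39 ran from -0.13 to 0.02, Rpl27a from -0.13 to 0.06, Rps27l from -0.13 to 0.10 and Rps15a from -0.05 to 0.03. Between brainstem wild types Rpl39 ran from -0.01 to 0.13 and Rpl23a from -0.06 to 0.09.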
